A study of Mus musculus with 4 samples.

Results

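The immunoglobulin variable (V) genes comprised all 348 gene symbols beginning with Ighv, Igkv or Iglv among the 32285 annotated features, namely 185 heavy-chain, 160 kappa light-chain and 3 lambda light-chain entries. By the GENCODE annotation 218 of them were V genes and 130 were V pseudogenes. At least 1 transcript was counted for 239 of the 348, of which 204 were V genes and 35 were pseudogenes. The pseudogenes held 470 V transcripts, and no pseudogene enters the results below by name. Each transcript carries a unique molecular identifier (UMI), so that 1 UMI stands for 1 captured molecule.

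An antibody binds its antigen through the variable parts of its heavy and light chains. During B cell development 1 heavy V gene is joined to short D and J segments, and 1 kappa or lambda V gene to a J segment. B cells of common descent thus normally share their V genes, but unrelated B cells can carry the same ones. Naive B cells carry a broad mix of V genes. Plasma cells, which secrete antibody, descend from fewer, antigen-selected B cells and make very large amounts of these transcripts, and in the gut most secrete IgA. T cells assemble other receptor genes, so V transcripts in T cells serve as a measure of free RNA, the molecules that leak from broken cells into other droplets.

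The cells were CD45+ immune cells sorted from small-intestinal crypts of mice and sequenced from the 5′ end with the 10x Genomics droplet method, a method that covers the V part of the transcripts. There were 2 samples from mice on a high-cystine diet and 2 from mice on the control diet. The titles gave the diet, since all 4 samples carry the entry Control as treatment, and all 4 carry Male as genotype. Strain, age and length of feeding are not given in the sources used here, nor is the number of mice per sample, so p-values measure the spread between these samples, which may be technical.

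The deposited matrices held 31301936 and 31215609 UMIs in cystine samples 1 and 2 and 27229695 and 30684435 in control samples 1 and 2. After removal of poor barcodes and likely doublets, 16324 and 14379 cells remained in the cystine samples and 14563 and 13483 in the control samples. Any pair of libraries had 254 to 328 cell barcodes in common. Plasma cells were chosen by at least 3 UMIs of Jchain, which links antibody multimers, and at least 1 of Mzb1, a chaperone of antibody assembly. This gave 110 and 42 cells in the cystine samples, against 21 and 21 in the control samples. B cells were chosen by at least 1 UMI of the receptor subunit Cd79a, fewer than 3 of Jchain and none of the T cell gene Cd3e, which gave 2403 and 890 cells, against 358 and 298. T cells numbered 11251 and 11341, against 12559 and 12177. Median UMIs per cell were 4057 to 6417 in the plasma cells, 1090 to 1266 in the B cells and 1337 to 1724 in the T cells.

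The sequences of 5 V genes are shown because the largest groups of plasma cells used them and because the 2 kappa genes of family 1 are near copies of each other. They are germline coding sequences of build GRCm38 from the GENCODE annotation, 5′ to 3′ on the coding strand. The last 300 bases of each are given, which leave out the start of the signal peptide, and capitals mark the bases that differ from the most similar other V gene. Positions are those of the whole coding sequence with its intron. Ighv6-3, at chr12:114391712-114392169 on the minus strand, is 90.8% identical to Ighv6-6.
Ighv6-3: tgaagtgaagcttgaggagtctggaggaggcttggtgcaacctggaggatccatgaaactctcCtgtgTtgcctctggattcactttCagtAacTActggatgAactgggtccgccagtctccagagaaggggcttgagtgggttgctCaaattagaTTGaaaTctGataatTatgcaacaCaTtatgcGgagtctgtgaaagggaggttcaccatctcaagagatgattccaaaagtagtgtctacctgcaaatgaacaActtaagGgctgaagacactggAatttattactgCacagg
Igkv1-110, at chr6:68270527-68271267 on the plus strand, differs from Igkv1-117 at 10 bases of 359 (97.2% identity), all of them in the part shown.
Igkv1-110: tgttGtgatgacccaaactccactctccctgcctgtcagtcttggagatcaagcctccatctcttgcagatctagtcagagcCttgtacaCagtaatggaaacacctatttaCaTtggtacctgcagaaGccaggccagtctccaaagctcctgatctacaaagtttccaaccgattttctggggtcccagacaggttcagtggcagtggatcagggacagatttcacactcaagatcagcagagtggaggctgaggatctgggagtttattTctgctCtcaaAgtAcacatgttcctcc
Igkv1-117, at chr6:68121091-68121827 on the plus strand, is marked against Igkv1-110.
Igkv1-117: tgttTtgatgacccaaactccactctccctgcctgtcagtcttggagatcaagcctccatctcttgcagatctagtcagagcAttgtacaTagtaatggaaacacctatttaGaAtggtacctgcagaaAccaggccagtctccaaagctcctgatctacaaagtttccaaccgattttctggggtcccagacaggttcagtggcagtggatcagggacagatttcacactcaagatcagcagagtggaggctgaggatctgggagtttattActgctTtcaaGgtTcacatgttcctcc
Ighv3-6, at chr12:114288152-114288582 on the minus strand, is 91.7% identical to Ighv3-1.
Ighv3-6: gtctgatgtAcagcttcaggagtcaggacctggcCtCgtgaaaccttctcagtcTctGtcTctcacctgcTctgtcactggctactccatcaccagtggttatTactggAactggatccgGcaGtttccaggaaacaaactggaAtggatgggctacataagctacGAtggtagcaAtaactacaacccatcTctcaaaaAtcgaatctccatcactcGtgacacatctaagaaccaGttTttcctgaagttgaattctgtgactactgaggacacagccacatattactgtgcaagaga
Igkv6-17, at chr6:70371469-70371993 on the plus strand, is 95.7% identical to Igkv6-25.
Igkv6-17: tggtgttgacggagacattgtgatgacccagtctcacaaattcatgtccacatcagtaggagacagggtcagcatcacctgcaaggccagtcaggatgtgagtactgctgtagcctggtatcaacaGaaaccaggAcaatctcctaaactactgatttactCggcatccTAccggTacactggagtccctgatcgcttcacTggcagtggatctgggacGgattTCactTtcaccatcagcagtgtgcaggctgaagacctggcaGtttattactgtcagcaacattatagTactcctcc
Across the 218 V genes the median identity to the nearest other member was 94.6% and the median coding length was 351 bases. In 106 of them at least 1 stretch of 90 bases was identical to one in another member. Such stretches made up 22.1% of those of Igkv1-110, 21.9% of those of Igkv1-117 and 21.9% of those of Igkv6-17. None was found in Ighv6-3 or Ighv3-6. Counts of the genes with shared stretches are uncertain to the extent that the counting could split reads between copies.

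V transcripts made up a large part of the RNA of plasma cells and a small part of the RNA of B cells. In plasma cells they were 30.9% and 36.9% of UMIs in the cystine samples and 25.5% and 28.5% in the control samples. In B cells they were 1.12% and 1.26% in the cystine samples, against 1.17% and 1.33% in the control samples. In T cells the values were 0.0244% and 0.0038%, against 0.00315% and 0.00125%. The B cell values of the diets overlapped, and every plasma cell value lay above every B cell value.

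The cells chosen as plasma cells were of different kinds in their markers. The values fell apart at about 20 Jchain UMIs, a boundary set after the data had been seen. Cells with at least 20 numbered 58 and 27 in the cystine samples, against 7 and 7 in the control samples. Their median V count was 2730 and 2425 UMIs, against 3355 and 4315, and V transcripts were 44.3% to 51.8% of their UMIs in the median cell. Xbp1, the transcription factor of secretory cells, was detected in 96.6% to 100% of them, and the plasma cell surface gene Sdc1 in 28.6% to 42.9%. The B cell surface gene Ms4a1 was also seen in 51.7% and 44.4% of them in the cystine samples, against 71.4% and 42.9% in the control samples. S1pr2, a receptor that keeps B cells in germinal centres, was detected in 1.72% and 0% of them in the cystine samples, against 14.3% and 0% in the control samples.

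Cells with fewer than 20 Jchain UMIs numbered 52 and 15 in the cystine samples, against 14 and 14 in the control samples. Their median V count was 39.5 and 43, against 33.5 and 31. S1pr2 was detected in 28.8% and 33.3% of them, against 21.4% and 21.4%, and Ms4a1 in 86.7% to 100%. Sdc1 was seen in 1 cell of cystine sample 1 and in no cell of the other samples. The markers of these cells therefore go against the name plasma cell. All cells that met the Jchain and Mzb1 rule are called plasma-rule cells from here on. The T cell gene Cd3e had a UMI in 28.6% to 33.3% of plasma-rule cells by sample. Among those with at least 20 Jchain UMIs, which held most of the V transcripts, it was seen in 37.9% and 33.3% of cells in the cystine samples, against 57.1% and 71.4% in the control samples, and among those under 20 in 21.2% and 26.7%, against 21.4% and 7.14%. The part of these T cell transcripts in the V gene values was not tested.

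**Figure D1:**
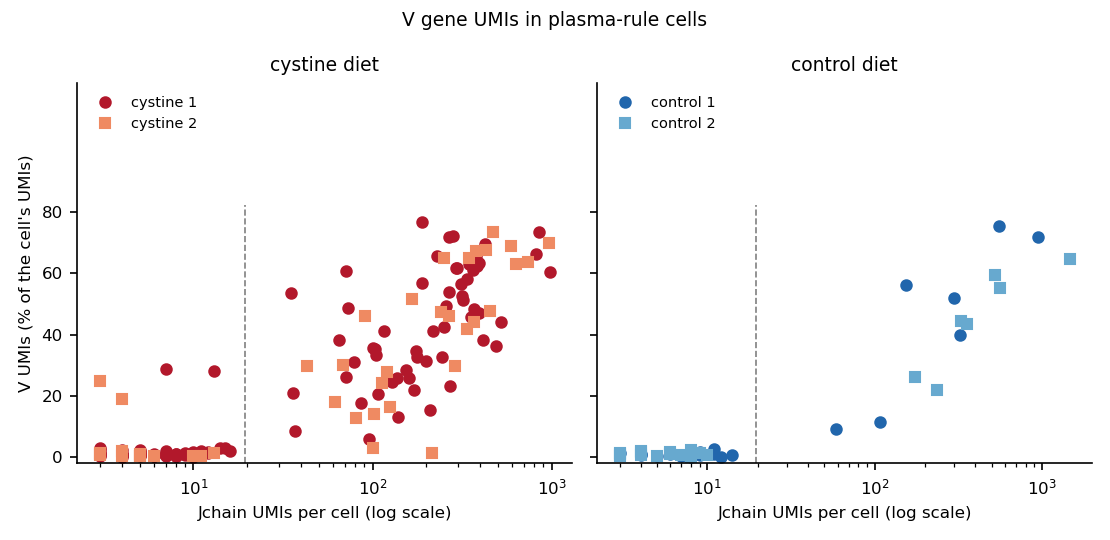
V UMIs as a percent of each cell's UMIs (vertical axis) against Jchain UMIs on a log axis for every plasma-rule cell, with cystine samples on the left and control samples on the right. Each symbol is 1 cell, and the dashed line is the boundary at 20 Jchain UMIs. Most cells left of the line lie near 0%, and the cells right of it reach 76.6%.

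A heavy or light V gene was assigned to a cell where its top gene had at least 2 UMIs and over 50% of the V UMIs of that chain. In B cells a heavy gene was assigned in 1346 and 599 cells of the cystine samples, against 203 and 196 in the control samples, and a light gene in 2094 and 826, against 327 and 280. Between them the B cells used 184 different V genes and the plasma-rule cells 105.

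No heavy V gene dominated the B cells. Ighv3-6 was the gene with the highest mean share, at 6.39% and 7.85% of assigned B cells in the cystine samples, against 1.97% and 3.06% in the control samples. Both cystine values lay above both control values. Ighv1-26 followed with 4.16% and 5.34%, against 2.46% and 6.63%, and Ighv1-64 with 4.31% and 3.17%, against 5.91% and 2.55%. For both of these the control values lay on either side of the cystine values. Ighv9-3 had 4.98% and 3.51%, against 3.45% and 2.04%, with no overlap. The remaining 4 of the 8 most used heavy genes, Ighv1-81, Ighv1-82, Ighv1-9 and Ighv1-80, lay between 1.84% and 5.10% in every sample. By family, Ighv1, the largest heavy family with 93 members, was used by 55.2% and 54.9% of assigned B cells, against 56.2% and 60.2%.

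Among light chains, Igkv10-96 led in B cells with 6.26% and 7.26% in the cystine samples, against 6.73% and 6.07% in the control samples. Both control values lay within or just below the cystine range. Igkv1-117 had 4.35% and 4.84%, against 3.67% and 8.93%, and its near copy Igkv1-110 had 4.63% and 4.12%, against 4.28% and 3.57%. Control sample 2 stood highest for the first and lowest for the second. Igkv1-135 was used by 4.11% and 4.24%, against 2.45% and 2.14%, and Igkv9-120 by 2.82% and 3.51%, against 2.14% and 2.14%. In these 2 genes the cystine values lay above the control values. Igkv6-17 had 3.58% and 3.03%, against 3.98% and 1.43%, and Igkv6-15 had 2.67% and 3.87%, against 3.06% and 1.43%, with overlap in both. For either chain, 2 against 2 samples cannot give an exact permutation p below 0.33. Shares of single genes that lie apart are therefore no support for a diet difference.

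**Figure D2:**
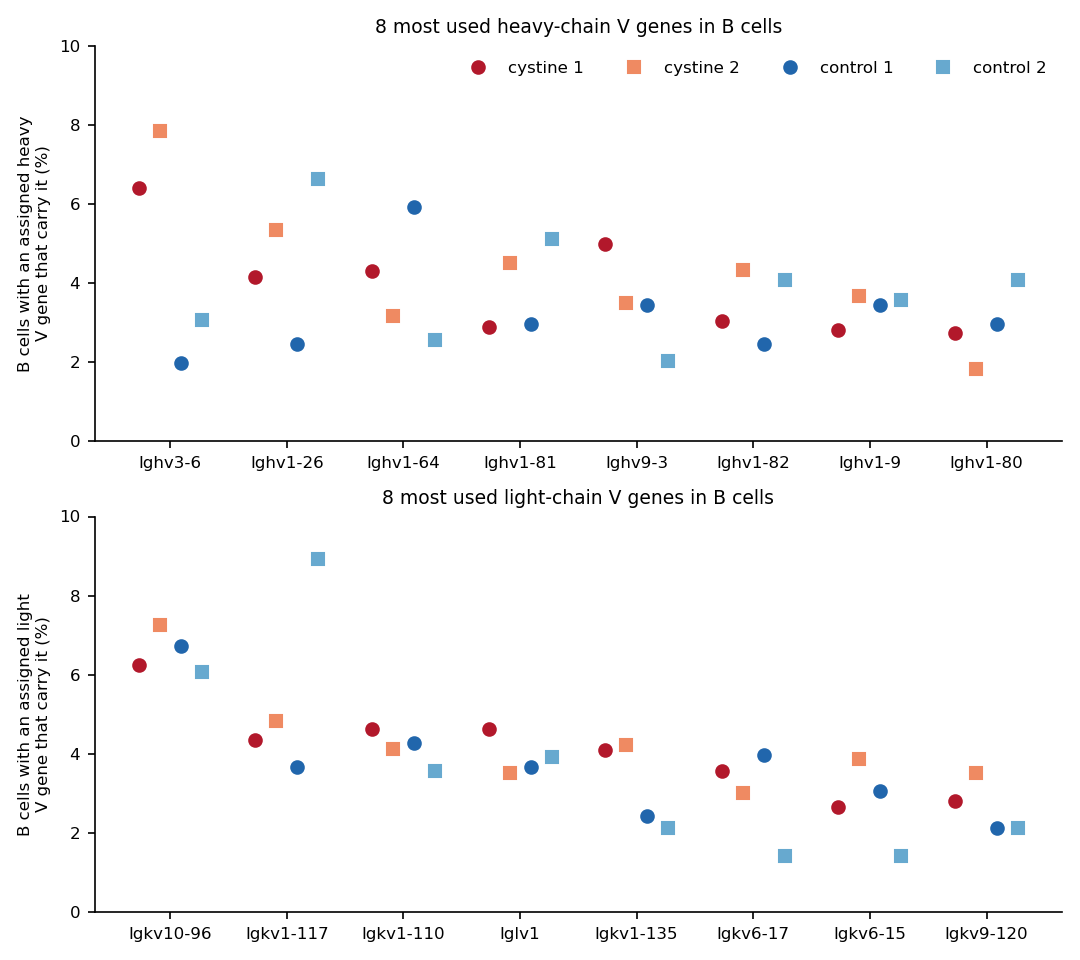
Share of B cells with an assigned V gene of the chain that carry each gene (percent), for the 8 most used heavy genes (above) and light genes (below), with 1 point per sample. Ighv3-6 stands at 6.39% and 7.85% in the cystine samples, above 1.97% and 3.06% in the control samples, while Igkv10-96 differs little between samples.

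The 3 lambda genes were a small part of B cell use, as is usual in mice. They were assigned to 120 of 2094 light-assigned B cells in cystine sample 1, or 5.73% with a 95% Clopper-Pearson interval of 4.77% to 6.81%. The shares were 4.24% in cystine sample 2, against 5.81% and 4.64% in the control samples. Iglv1 accounted for 3.51% to 4.63% of assigned cells by sample, Iglv2 for 0.357% to 0.917% and Iglv3 for 0.121% to 1.22%. In plasma-rule cells lambda genes were assigned to 6 of 108 and 1 of 42 cells in the cystine samples, against 0 of 21 and 1 of 21 in the control samples. The interval for 1 of 21 was 0.12% to 23.8%, and 0 of 21 allows a share of up to 16.1% by the same method, so lambda use in plasma-rule cells was not measured closely at this depth. Such intervals cover counting error only. The difference between diets had an exact two-sided permutation p of 0.667 in B cells, and 2 against 2 samples cannot give a p below 0.33.

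Genes long tied to B-1 cells that bind phosphatidylcholine were rare. Ighv11-2 was assigned to 1 and 1 B cells in the cystine samples, against 0 and 0 in the control samples, and Ighv12-3 to 2 and 3, against 0 and 1. Their known light-chain partners were Igkv14-126, assigned to 10 and 4 B cells, against 2 and 4, and Igkv4-91, assigned to 17 and 5, against 2 and 0. In plasma-rule cells of control sample 1, Igkv4-91 was assigned to 4 of 21 cells (19.0%), against 0% to 1.85% in the other samples.

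The evenness of V use was compared by the effective number of genes, which is the inverse of the chance that 2 cells of a sample carry the same gene. In B cells the effective number of heavy genes was 42.9 and 39.99 in the cystine samples, against 53.0 and 45.1 in the control samples. Both cystine values lay below both control values, and the exact two-sided permutation p was 0.33, the smallest that 2 against 2 samples allow. With the Shannon entropy in its place the direction turned, with 53.7 ± 2.38 in cystine and 48.9 ± 3.68 in control samples (SD, n = 2 each). That measure is not corrected for the number of assigned cells, which was 1346 and 599, against 203 and 196. At equal numbers of cells the direction stayed, with 13.6 and 13.5 distinct heavy genes expected among 16 cells, against 14.0 and 13.7. The effective number of light genes was 41.9 and 41.1, against 47.3 and 38.9, with overlap (exact permutation p = 1).

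Plasma-rule cells drew on fewer V genes than B cells of the same sample at equal cell numbers in most comparisons. Among 16 heavy-assigned cells, the expected number of distinct genes was 11.2 and 14.4 in plasma-rule cells of the cystine samples and 11 and 11.2 in those of the control samples. The matching B cell values were 13.6 and 13.5 in the cystine samples and 14.0 and 13.7 in the control samples. Cystine sample 2 was thus the sample in which plasma-rule cells lay above B cells. Among 21 light-assigned cells the expected number was 13.6 ± 2.46 in plasma-rule cells and 17.0 ± 0.208 in B cells (SD, n = 4 each), and it was lower in plasma-rule cells in 4 of 4 samples.

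By the effective number, plasma-rule cells had 29.6 ± 27.5 heavy genes and B cells 45.2 ± 5.57 (SD, n = 4 each), lower in 3 of 4 samples (exact paired permutation p = 0.25, two-sided). The plasma-rule mean includes 70.0 in cystine sample 2, from 36 cells with 28 different genes, so it is not a close measure. For light genes the means were 20.5 ± 12.5 in plasma-rule cells and 42.3 ± 3.56 in B cells, lower in 4 of 4 samples. That exact paired p was 0.13, the smallest that 4 pairs allow. Counted by UMIs, where each cell weighs by its V transcripts, the effective numbers were 5.31 ± 1.42 and 38.4 ± 2.09 for heavy genes and 5.67 ± 2.88 and 31.3 ± 4.93 for light genes, plasma-rule cells first.

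**Figure D3:**
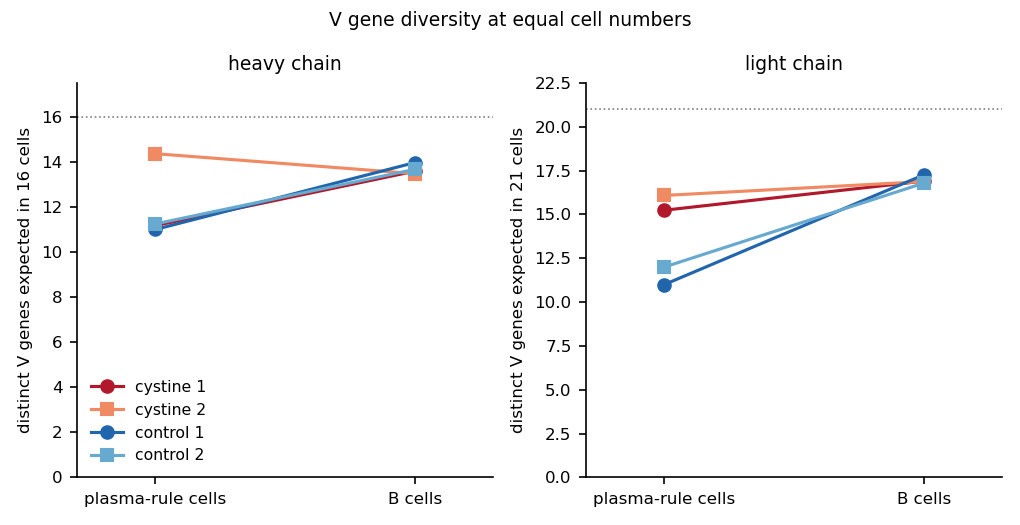
Expected number of distinct V genes when 16 heavy-assigned or 21 light-assigned cells are drawn (vertical axis) in plasma-rule cells and B cells, with 1 line per sample. The dotted line is the number of cells drawn. In light chains all 4 lines are lower on the plasma side, and in heavy chains the line of cystine sample 2 is higher there, at 14.4.

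Between diets, the effective number of heavy genes in plasma-rule cells was 13.8 and 70.0 in the cystine samples, against 24.0 and 10.7 in the control samples, so the cystine values lay within and above the control range (exact permutation p = 0.667). For light genes the values were 22.3 and 37.4, against 11.1 and 11.1, with no overlap (exact permutation p = 0.33, the smallest possible). The control values rest on 16 and 19 heavy-assigned and 21 and 21 light-assigned cells. The heavy value of 70.0 rests on 36 cells with 28 different genes, and that of 24.0 on 16 cells with 11. Both lie above the number of genes seen, so neither is a close measure. Of the cells with at least 20 Jchain UMIs, the 7 of each control sample had 7 different heavy genes, so no effective number could be computed there. For light genes in these cells the cystine values were 13.5 and 31.9. Control sample 1, with 6 different light genes in 7 cells, lay between them, so the diets overlapped. Control sample 2 had 7 different light genes in 7 cells and gave no value. Among cells under 20 the light values were 31.4 and 26.25, against 5.35 and 5.06.

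Different genes led the plasma-rule cells of each sample. In cystine sample 1, Ighv6-3 was assigned to 22 of 95 cells (23.2%), against 0%, 6.25% and 5.26% in cystine sample 2 and control samples 1 and 2. In control sample 2, Ighv3-6 was assigned to 6 of 19 cells (31.6%), while the other samples lay between 2.78% and 6.32%. Igkv6-17 was assigned to 6 of 21 light-assigned cells of control sample 2 (28.6%) and to 0% to 4.76% in the other samples. Igkv1-110 was assigned to 18 of 108 cells in cystine sample 1 (16.7%), and to 3, 1 and 1 cells in cystine sample 2 and control samples 1 and 2. Ighv1-53, Ighv9-3, Igkv1-135 and Igkv14-111 were each found in plasma-rule cells of at least 3 samples, in 1 to 8 cells.

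Family shares in plasma-rule cells and B cells were compared without a test, and the families were picked after their values had been seen. Ighv8 genes were assigned to no plasma-rule cell in any of the 4 samples, against 4.68% to 6.404% of B cells out of 196 to 1346 with a heavy gene. The heavy-assigned plasma-rule cells numbered 95 and 36 in the cystine samples and 16 and 19 in the control samples. Igkv1 genes were used by 25.03% ± 10.6 of plasma-rule cells and 14.6% ± 1.64 of B cells (SD, n = 4 each), higher in 3 of 4 samples. Along the heavy-chain locus, the V genes were cut into 4 stretches of 28 or 29 genes. The stretch Ighv9-1 to Ighv1-11 held 41.6% ± 17.1 of plasma-rule assignments and 23.7% ± 3.44 of B cell assignments. The stretch Ighv8-8 to Ighv1-85, farthest from the constant genes, held 19.9% ± 11.6 and 34.9% ± 3.49. The first stretch holds Ighv6-3 and Ighv3-6, the leading genes of the 2 samples just described.

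Heavy and light genes recurred together in plasma-rule cells. Within a sample, 2 plasma-rule cells had the same heavy and light gene in 1.59% and 1.11% of cell pairs in the cystine samples, against 2.50% and 9.36% in the control samples. Between samples the value was 0.245%. The order of the diets turned with the cells counted. Among cells with at least 20 Jchain UMIs the within-sample values were 3.09% and 1.85% in the cystine samples, against 0 of 21 cell pairs in each control sample, from 7 cells each. Among cells under 20 they were 1.34% and 0%, against 5.56% and 24.2%. In B cells the within-sample values were 0.0636% and 0.0709%, against 0.0341% and 0.0853%, and the between-sample value was 0.0568%, so B cells of a sample shared pairs about as often as B cells of different samples.

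The largest recurring pair joined Ighv6-3 and Igkv1-110, both shown above, in 10 plasma-rule cells of cystine sample 1. These cells had 105 to 394 Jchain UMIs, 86 to 3023 Ighv6-3 UMIs and 1494 to 3674 Igkv1-110 UMIs. IgA heavy-chain (Igha) transcripts were seen in 9 of them and Sdc1 in 5. The same pair was seen in 1 plasma-rule cell of control sample 1, and in 3 and 1 B cells of the cystine samples. The second largest pair joined Ighv3-6 and Igkv6-17 in 6 plasma-rule cells of control sample 2. Those cells had 3 to 10 Jchain UMIs and Igha in none, and the pair was in 2 and 3 B cells of the cystine samples. In cystine sample 2, Ighv1-63 and Igkv1-110 recurred in 3 plasma-rule cells, all with Igha. The junction sequence that would show common descent was not analysed here.

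UMIs summed over plasma-rule cells were set against those summed over B cells of the same sample with the edgeR quasi-likelihood test and Benjamini-Hochberg adjustment over 4473 genes. In summed samples, fewer cells of a type and less RNA per cell cannot be told apart. Of the 348 V genes 83 passed the filter on low counts and 17 of these passed the adjusted threshold of 0.05, which is 20.5% beside 23.3% of all genes tested. Higher in plasma-rule cells were 10, beside 11.4% of all genes, and lower were 7, beside 12% of all genes. The share of V genes called is thus near that of all genes. Some of the called genes passed the filter through a single class, as given below. The median log2 fold change was 0.63 over the 83 V genes and -0.08 over all genes.

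Igkv1-110 rose most clearly. It stood at 79922 and 49351 CPM (UMIs of the gene scaled to a common total per sample) in plasma-rule cells of the cystine samples and at 44166 and 95696 CPM in those of the control samples. In B cells it had 559 and 540 CPM, against 488 and 552 CPM. Each plasma-rule value was far above each B cell value (log2 fold change 7.35, SE 0.21, edgeR adjusted p = 1.46e-05). In each control sample 1 cell held 100% of its plasma-rule UMIs after rounding, while cystine sample 1 had it in 25 cells. Ighv1-53 had 3309 and 2235 CPM in plasma-rule cells of the cystine samples and 7992 and 10827 CPM in those of the control samples. It lay in 6 and 2 plasma-rule cells, against 2 and 1. The highest cell held 45.2% and 99.8% of these UMIs in the cystine samples, against 98.6% and 100%. The B cell values of Ighv1-53 were 49.7 and 52.1 CPM, against 57.1 and 55.9 CPM (log2 fold change 6.98, SE 0.37, edgeR adjusted p = 9.66e-05). Igkv1-110 and Ighv1-53 were the called genes with a higher share of V UMIs in plasma-rule cells than in B cells in 4 of 4 samples. The share of Igkv1-110 was 25.9%, 13.4%, 17.3% and 33.6% in plasma-rule cells and 5.01%, 4.27%, 4.15% and 4.14% in B cells of cystine samples 1 and 2 and control samples 1 and 2.

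Ighv1-26 (log2 fold change 5.16, adjusted p = 0.000294), Ighv14-3, Igkv10-96, Ighv3-6, Igkv1-135 and Igkv14-111 rose as well, each with a higher CPM in 4 of 4 samples, and Igkv4-59 rose with higher values in 3 of 4. In B cells Ighv14-3 had 10.3 and 4.53 CPM in the cystine samples, against 19.8 and 0 CPM, all below the low count filter. It passed the filter through plasma-rule cells alone, so neither its call nor its direction is support for a difference. As a share of V UMIs, Igkv1-135 and Igkv14-111 were lower in plasma-rule cells than in B cells in 4 of 4 samples, with 0.269% to 0.528% against 1.40% to 2.36% for Igkv14-111. Ighv3-6 had a higher share in 1 of 4 samples, and Ighv1-26, Ighv14-3 and Igkv10-96 each in 2 of 4. Single cells carried much of these values, as with Ighv1-26, of which 1 cell held 99.9% of the plasma-rule UMIs in cystine sample 2. For 5 of these genes a fit with the cells under 20 Jchain UMIs alone gave no rise. The log2 fold change was then -1.81 for Igkv1-110, -0.68 for Ighv1-53, -0.29 for Igkv4-59 and -7.77 for Igkv10-96, and it was 0.84 for Ighv1-26, with an edgeR adjusted p of 0.657.

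The 6 genes with the largest falls were missing or nearly missing from plasma-rule cells. Igkv19-93 had 0 UMIs in plasma-rule cells of all 4 samples, against 438 and 107 UMIs in B cells of the cystine samples and 81 and 57 in those of the control samples. With the limit of 3 UMIs over all samples that a count of 0 allows, it was at least 49.5-fold lower if each UMI is taken as independent. Igkv8-19, Igkv13-85 and Ighv8-8 also had 0 plasma-rule UMIs, and were at least 26.1-fold, 23.7-fold and 19.1-fold lower. These 4 genes passed the low count filter through B cells alone, so their calls are no support for a difference. Igkv3-4 had 2 UMIs in plasma-rule cells and 937 in B cells, a ratio of 0.00982 with a counting interval of 0.00119 to 0.0356. Igkv3-7 had 2 and 345, a ratio of 0.0267 with an interval of 0.00322 to 0.0971. These limits and intervals take each UMI as independent, although 1 cell can give many, so they do not cover the spread between cells. Igkv3-4 was found in 38 and 14 B cells of the cystine samples, against 7 and 2 in the control samples. All 6 were lower in plasma-rule cells in 4 of 4 samples. In plasma-rule cells Igkv3-4 stood at no more than 3.45 CPM and Igkv3-7 at no more than 3.19 CPM, below the low count filter. They too passed it through B cells alone, so neither these 6 calls nor their direction is support for a difference. Free V transcripts in B cells were not set apart from their own.

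The same fit gives the wider setting of the antibody pathway. Of 9 plasma cell genes on the list used here 6 were tested, and 5 rose and 1 fell in plasma-rule cells, with Igha at a log2 fold change of 7.53 and Xbp1 at 3.35. Of 9 B cell genes 7 fell, such as Ighd at -4.79, and 1, Ighm, rose. The germinal centre genes S1pr2 (2.99) and Fas (2.60) rose. Of the octamer-binding factors that act on V gene promoters, Pou2af1 rose (1.51) and Pou2f2 fell (-0.56), and Pou2f1 was not called. Of the 6 receptor partners, Igkc (3.64) and Iglc1 rose, and Cd79b and Iglc3 fell. Of 6 T cell genes 4 were tested and 2, Cd3d and Cd3g, rose.

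For the diets, UMIs were first summed over B cells. Of 133 V genes tested 2 passed, both lower in the cystine samples, beside 0.0705% of all 7089 genes in either direction, 0.0282% lower and 0.0423% higher. The median log2 fold change of the 133 was -0.18, beside 0.00 over all genes. Igkv14-126, 1 of the B-1 genes, had 62.2 and 53.6 CPM in the cystine samples, against 141 and 255 CPM in the control samples (log2 fold change -1.81, SE 0.25, edgeR adjusted p = 0.0169). It came from 18 and 6 cells, against 3 and 5 cells. Igkv5-43 had 53.8 and 68.0 CPM, against 154 and 192 CPM (log2 fold change -1.58, SE 0.21, adjusted p = 0.0169), from 49 and 15 cells, against 12 and 15. It is 98.6% identical to Igkv5-45, so its counts are uncertain. Ighv3-6 had 153 and 193 CPM, against 48.3 and 72.9 CPM, and did not pass (log2 fold change 1.47, SE 0.25, adjusted p = 0.0636). With only cells of 800 genes or more and no more than 5% mitochondrial UMIs, edgeR called 0 V genes, with 18 at an unadjusted p below 0.05, and with all B cells 36 lay below that p. The Paneth cell genes Lyz1 and Defa24 were called higher in cystine B cells, at log2 fold changes of 4.95 and 8.77, and the part of such free RNA in the V gene values was not tested. No B, plasma or T cell marker of the lists was called in this fit.

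Over all kept cells, which follows the numbers of B and plasma cells as well, V genes were mostly higher in the cystine samples. B cells made up 14.7% and 6.19% of kept cells in the cystine samples, against 2.46% and 2.21% in the control samples. V transcripts were 0.964% and 0.490% of all UMIs, against 0.168% and 0.152%. Of 157 V genes tested, 143 had a log2 fold change above 0, with a median of 2.44 beside 0.00 over all genes, which describes the genes that passed the filter on low counts. The edgeR test called 10, all higher, beside 0.178% of all 14078 genes. Some of these passed the filter through the cystine samples alone, as given below.

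Most of the called genes rested on single cells. In 7 of the 10, 1 cell held over 50% of the gene's UMIs in both cystine samples, and each is given here with its UMIs. Ighv1-4 had 178 and 188 UMIs in the cystine samples, against 0 and 0. By the pooled limit of 3 UMIs, with each UMI taken as independent, it was at least 116-fold higher. It passed the low count filter through the cystine samples alone, so its call is no support for a difference. Ighv7-3 had 1163 and 6099 UMIs, against 6 and 5, and 1 cell held 90.3% and 99.5% of them in the cystine samples. Ighv1-42 had 445 and 577 UMIs, against 7 and 2. In the control samples Ighv7-3 stood at 0.268 and 0.194 CPM and Ighv1-42 at 0.313 and 0.0777 CPM, below the low count filter. Both therefore also passed it through the cystine samples alone, so their calls are no support for a difference. Ighv5-4 had 857 and 1210 UMIs, against 25 and 17. Igkv8-27, Igkv15-103 and Iglv2 had 1261 to 7103 UMIs in the cystine samples and 22 to 165 in the control samples.

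In the other 3, 1 cell held over 50% in at most 1 cystine sample. The highest cell held 2.62% and 44.6% of Igkv6-17 UMIs in cystine samples 1 and 2, 33.4% and 61.0% of Ighv1-82 UMIs, and 4.45% and 41.9% of Igkv12-46 UMIs. Igkv6-17 had 66.2 and 96.1 CPM in the cystine samples, against 8.14 and 11.97 CPM (log2 fold change 2.95, SE 0.28, edgeR adjusted p = 0.0284). Ighv1-82 had 14.6 and 13.5 CPM, against 1.57 and 2.45 CPM (2.74, SE 0.28, adjusted p = 0.0368). Igkv12-46 had 35.3 and 27.2 CPM, against 6.44 and 6.03 CPM (2.29, SE 0.18, adjusted p = 0.0156). The groups did not overlap in any of the 3, but the genes were chosen by the same fit, so this is no further support. Within B cells alone their log2 fold changes were 0.60, 0.14 and -0.40, and none was called. Without plasma-rule cells 2 V genes were called, and without B cells and plasma-rule cells edgeR called 0, with 39 of 71 at an unadjusted p below 0.05.

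A few cells also held most V transcripts of a sample. The highest cell held 4.21% and 17.0% of V UMIs in the cystine samples, against 28.9% and 34.4% in the control samples, and the 10 highest held 29.5% and 60.9%, against 79.7% and 83.1%. Plasma-rule cells together held 80.8% and 84.7%, against 80.3% and 83.9%.

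**Figure D4:**
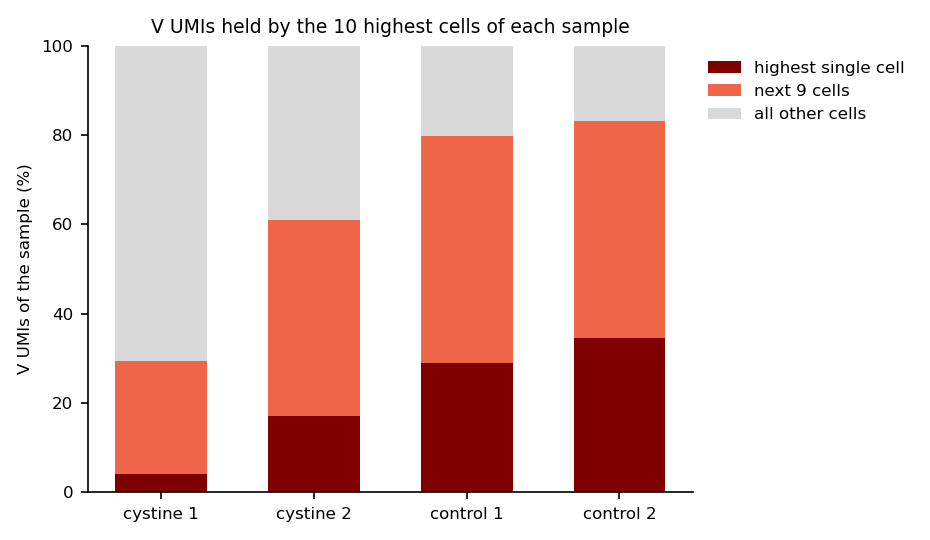
Percent of each sample's V UMIs held by its highest cell, its next 9 cells and all other cells. The 10 highest cells hold 29.5% and 60.9% in cystine samples 1 and 2 and 79.7% and 83.1% in control samples 1 and 2.

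In plasma-rule cells 45 V genes passed the filter and 2 were called between the diets, both higher, beside 0.093% of all 2150 genes. Igkv3-5 had 6777 and 2653 UMIs in the cystine samples, against 0 and 0 in the control samples, from 4 and 4 cells, of which 1 held 52.8% and 54.1%. It was at least 799-fold higher by the pooled limit, with each UMI taken as independent. Igkv8-27 had 2442 and 1111 UMIs, against 0 and 0, and 1 cell held 96.4% and 100% (at least 301-fold higher by the same limit). Both genes passed the low count filter through the cystine samples alone, so neither their calls nor the count of 2 is support for a difference. With plasma cells defined by at least 10 Jchain UMIs and no Cd3e, edgeR called 0 V genes, with 6 of 20 at an unadjusted p below 0.05. Without either control sample it called 0 as well, with 25 and 21 below that p.

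T cells showed how far free V transcripts spread. At least 1 V UMI was found in 25.7% and 6.16% of T cells in the cystine samples, against 4.36% and 2.10% in the control samples. Cystine sample 1 stood apart, and the other cystine sample lay near the controls. With each cell thinned to 1000 UMIs the shares were 19.0% and 3.54%, against 2.83% and 1.05%. In B cells 96.5% to 99.0% of cells had a V UMI, so V counts summed over genes were far above this background. For single genes the gap could be small. In cystine sample 1, Igkv1-110 was found in 7.82% of B cells and 3.82% of T cells, and Ighv6-3 in 3.62% and 2.10%. In the other samples the gap was wider, with Igkv1-110 in 4.04% to 4.47% of B cells and 0.167% to 0.406% of T cells. Ighv6-3 was there in 0.671% to 1.96% and 0.00821% to 0.0265%.

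The V genes in T cells of cystine sample 1 were led by the genes of its largest recurring plasma pair. Igkv1-110 was found in 3.82% and 0.406% of T cells in the cystine samples, against 0.167% and 0.230% in the control samples. Ighv6-3 was found in 2.10% and 0.0265%, against 0.0159% and 0.00821%. In cystine sample 1 these 2 genes held 14.6% and 8.61% of the V UMIs of T cells, and 25.9% and 15.3% of those of plasma-rule cells.

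Igkv14-111 did not follow this order. It had 92 and 66 UMIs in T cells of the cystine samples, against 71 and 75 in those of the control samples. These lay in 0.7999% and 0.573% of T cells, against 0.549% and 0.599%, and the 95% Clopper-Pearson intervals of all but the first sample overlapped widely. It was the leading V gene of T cells in 3 samples, at 8.82% of their V UMIs in cystine sample 2 and 11.7% and 26.0% in the control samples. In plasma-rule cells it was 0.269% to 0.528% of V UMIs, and in B cells 1.40% to 2.36%.

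**Figure D5:**
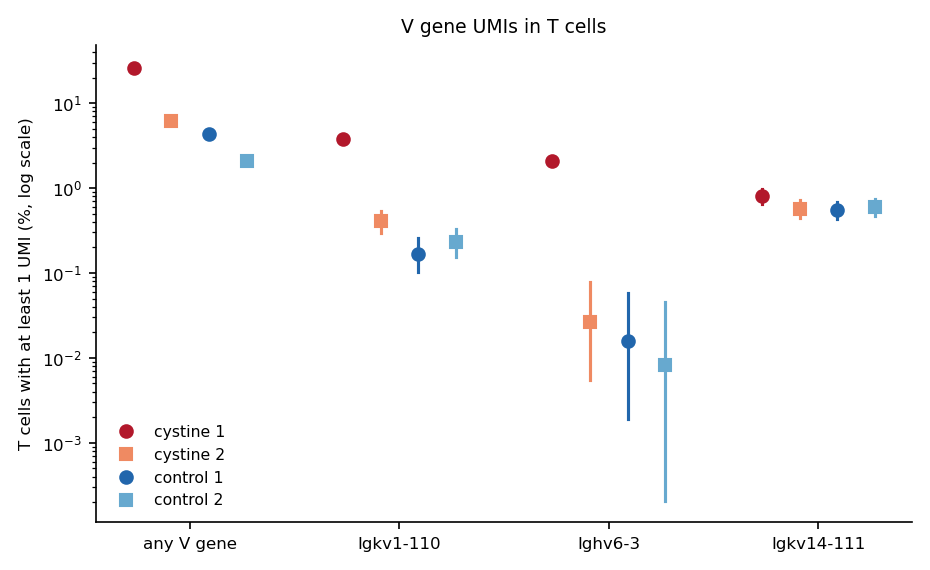
Percent of T cells with at least 1 UMI of any V gene, of Igkv1-110, of Ighv6-3 and of Igkv14-111 (log axis), with 1 point per sample and 95% Clopper-Pearson intervals. Cystine sample 1 is highest for any V gene at 25.7%, and for Igkv14-111 the 4 samples lie between 0.549% and 0.7999%.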

How the data were processed

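The authors deposited raw UMI counts for each gene in each cell barcode. Per the submitters' processing notes they used Cell Ranger 3.1.0, Seurat 4.0.1 and build GRCm39, whereas per the file headers the matrices come from Cell Ranger 7.0.1. The annotation at hand, GENCODE M21, is of build GRCm38, so sequences and positions are given in that build and counts were joined to it by gene identifier and symbol. No coordinate of the deposited files was used.

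A barcode was kept if it had 300 genes or more and no more than 10% mitochondrial UMIs. The highest Scrublet scores were removed at 0.8% per 1000 barcodes in each sample with scanpy 1.11.5, which took 1891 to 2982 barcodes per library. UMIs were summed per sample and cell class and fitted across all genes with edgeR 4.0.16 (filterByExpr, TMM, glmQLFit, glmQLFTest), with diet as the term or, for plasma-rule cells over B cells, class with the sample as a block. P-values were adjusted by Benjamini-Hochberg over all genes tested, with a threshold of 0.05. The fits and the evenness measures were tested on simulated data. Expected gene numbers in equal samples of cells were computed without resampling. Exact permutation tests used SciPy 1.17.1.

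The labels do not say that replicate numbers pair the samples, and deviations from group means correlated at 0.0244 over all cells, 0.0271 in B cells and 0.0778 in plasma-rule cells, so no pairing was assumed.

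The members, marker lists, naming rule and tests were chosen with earlier results of these data known. Named are the 8 heavy and 8 light genes most used in B cells, the 6 and 6 most used in plasma-rule cells, all Iglv genes, up to 12 called genes per fit with the largest fold changes, and 4 genes tied to B-1 cells. Genes of the recurring pairs, the family and locus shares, Igkv14-111 in T cells and the boundary at 20 Jchain UMIs were chosen after their values were seen. Alternatives were DESeq2 1.42.0, other scalings, filters, cell definitions and assignment rules, and leaving out each sample. Some marker genes of the lists are not reported here.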

Additional observations from a re-analysis of the deposited data

Results flagged for a closer look

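In 44 sets of 4 samples, 6 had a sample far from the other 3, where the gap to the nearest exceeded Dixon's 95% critical value. Chance alone gives this in about 1 of 20 sets, and several of the 6 share cells.

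The expected number of distinct heavy V genes among 16 plasma-rule cells was 14.4 in cystine sample 2, against 11 to 11.2 in the other samples. V transcripts were 0.0244% of the UMIs of T cells in cystine sample 1, against 0.00125% to 0.0038% in the others. Ighv3-6 was assigned to 31.6% of plasma-rule cells in control sample 2, against 2.78% to 6.32%, and Igkv6-17 to 28.6% there, against 0% to 4.76%. In the same sample 9.36% of pairs of plasma-rule cells had the same heavy and light gene, against 1.11% to 2.50%. These 3 values rest on the same 6 cells. Igkv4-91 was assigned to 19.0% of plasma-rule cells in control sample 1, or 4 cells, against 0% to 1.85% elsewhere.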

How the results depend on the processing

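The numbers of V genes called moved with the processing. Over all kept cells, where 10 were called, the count was 55 with the DESeq2 Wald test, 6 with stricter cell filters, 6 without doublet removal, 2 without plasma-rule cells and 0 without B cells and plasma-rule cells. Leaving out a sample gave 0 to 155, namely 92 and 155 without cystine samples 1 and 2 and 1 and 0 without control samples 1 and 2. In B cells, where 2 were called, it was 22 with no low count filter, 0 with stricter cell filters, 5 with at least 2 Cd79a UMIs, 1 with a second B cell gene required, and 11 to 13 without a sample. In plasma-rule cells, where 2 were called, it was 13 with the Wald test, 98 with no filter, 1 with stricter cell filters and 0 with at least 10 Jchain UMIs and no Cd3e. Without cystine sample 2 it was 63, and without any of the other samples 0. For plasma-rule cells over B cells, where 17 were called, it was 29 with the Wald test, 136 with no filter, 11 with stricter cell filters, 37 without the sample as a block, 33 with at least 10 Jchain UMIs, and 19 to 24 without a sample. With a replicate block the diet counts were 63 over all kept cells, 9 in B cells and 11 in plasma-rule cells. No pairing is known from the design.

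The direction turned for the diet difference (log2) of the effective number of heavy genes in B cells, to 0.31 with stricter cell filters and 0.14 with Shannon entropy, which is not corrected for the number of cells. For light genes in B cells it turned to 0.10 with Shannon entropy and 0.11 by UMIs, and lay between -0.19 and 0.094 without a sample, the last without control sample 1. For heavy genes in plasma-rule cells it lay between -0.21 and 2.13, below 0 without cystine sample 2. The lambda share in B cells differed by 1.11 percentage points with stricter cell filters, and by -0.989 to 0.504 without a sample. In plasma-rule cells it differed by -0.794 to 3.97 without a sample. Plasma-rule cells over B cells turned to -1.81 for Igkv1-110, -0.68 for Ighv1-53, -0.29 for Igkv4-59 and -7.77 for Igkv10-96 with cells under 20 Jchain UMIs alone, and to -1.67 for Ighv1-26 with at least 10 and no Cd3e. The share of T cells with a V UMI moved to 29.8%, 6.77% and 5.22% in cystine samples 1 and 2 and control sample 1 with stricter cell filters, and to 19.0%, 3.54%, 2.83% and 1.05% when thinned to 1000 UMIs, with control sample 2 last. The causes were not tested.

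Of 115 gene and setting combinations over all kept cells, 68 kept the call and 47 lost it, against 21 and 2 of 23 in B cells, and 13 and 7 of 20 in plasma-rule cells. Of 168 for plasma-rule cells over B cells, 157 kept it, 6 lost it and 5 turned. These counts include genes that passed the low count filter through a single class or through the cystine samples alone. A kept call of such a gene is no support for a difference. Between the diets in plasma-rule cells, all combinations came from such genes. With 21 plasma-rule cells in each control sample, rare V genes there were not measured.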

Other observations

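The overlap of V gene profiles, the sum over genes of the smaller of the 2 shares of V UMIs, was 53.0% and 42.5% between T cells and plasma-rule cells of the same sample in the cystine samples, against 19.3% and 26.6% in the control samples. Between T cells and B cells of the same sample it was 64.4% and 65.8%, against 55.9% and 23.5%. Control sample 2, with 288 V UMIs in T cells, had the lowest overlap with its B cells. These are descriptions of profiles with 288 to 4112 T cell UMIs and carry no test.

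Cells that met none of the rules for plasma, B or T cells had a V UMI in 38.1% and 11.5% of cells in the cystine samples, against 9.85% and 6.99% in the control samples. Igkv14-111 was found in 1.29% and 0.712% of them, against 0.554% and 0.811%.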
